A study of Mus musculus with 12 samples.

Results

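The mitochondrial carriers described here were the 50 rows of the count table, of 35869 gene symbols in all, whose symbol was Slc25a followed by a number, or Ucp1, Ucp2 or Ucp3. All 50 are protein-coding mouse genes in the annotation, and 41 of them had enough counts to be tested. RNA was measured in C57BL/6 mouse colonoids, which are spheres of colon epithelium grown from isolated crypts in Matrigel with EGF (50 ng/ml) and L-WRN conditioned medium, a source of Wnt3a, R-spondin and Noggin. There were 4 groups of 3 libraries, all grown in that medium: IL-1b (100 ng/mL) with IL-22 (1 ng/mL), IL-22 alone, IL-1b alone, each for 12 hours, and unstimulated. The design asks what each cytokine does to the epithelium alone and together. Whether the 3 replicates of a group were separate animals or cultures is not in the labels, and every p-value below covers the spread between libraries only, which may be technical.

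SLC25 carriers sit in the inner mitochondrial membrane, with a few exceptions in the outer membrane or in peroxisomes. They are built from tandem repeats of paired membrane helices and move nucleotides, phosphate, carboxylates, amino acids, cofactors, iron and glutathione between cytosol and matrix. In the colon, whose epithelium oxidises butyrate in its mitochondria, they link that oxidation to the rest of the cell. IL-22 signals to epithelium mainly through STAT3, and IL-1b through MyD88 and NF-kB.

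The promoters of 3 carriers are shown because their genes had the largest fall (Slc25a42), the largest rise (Slc25a31), or matches to 2 of the motifs searched (Slc25a36). The rise of Slc25a31 was on few counts (1 to 26 a library). Each runs from 250 bases before to 50 bases after the annotated start, 5′ to 3′ on the gene's strand, from RefSeq on GRCm38.p6. The window of Slc25a42 is chr8:70212232-70212531 on the minus strand, that of Slc25a36 is chr9:97110992-97111291 on the minus strand, and that of Slc25a31 is chr3:40708621-40708920 on the plus strand. Capitals mark matches to the STAT motif TTCNNNGAA or the E-box CACGTG.
Slc25a42: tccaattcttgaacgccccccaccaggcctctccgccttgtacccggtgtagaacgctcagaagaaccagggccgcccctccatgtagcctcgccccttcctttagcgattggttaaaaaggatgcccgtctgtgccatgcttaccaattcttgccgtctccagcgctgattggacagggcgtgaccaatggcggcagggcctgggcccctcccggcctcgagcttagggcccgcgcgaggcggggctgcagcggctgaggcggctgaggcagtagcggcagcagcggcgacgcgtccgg
Slc25a36: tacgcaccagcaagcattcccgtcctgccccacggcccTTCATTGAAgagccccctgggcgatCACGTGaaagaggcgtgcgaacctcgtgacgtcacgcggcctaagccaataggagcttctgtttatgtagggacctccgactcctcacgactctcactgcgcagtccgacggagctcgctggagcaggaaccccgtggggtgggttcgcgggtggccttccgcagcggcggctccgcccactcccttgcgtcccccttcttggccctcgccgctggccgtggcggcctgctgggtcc
Slc25a31: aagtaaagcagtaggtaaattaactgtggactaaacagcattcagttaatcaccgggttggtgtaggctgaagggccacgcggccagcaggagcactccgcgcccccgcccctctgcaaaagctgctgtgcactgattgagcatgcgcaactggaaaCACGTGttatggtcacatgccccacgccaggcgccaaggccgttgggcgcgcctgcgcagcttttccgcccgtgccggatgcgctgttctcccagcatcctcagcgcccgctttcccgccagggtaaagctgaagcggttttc
Slc25a42, the carrier with the largest fall, had no match to any of the 6 motifs searched. Slc25a36 had a STAT match at -212 and an E-box at -187, and Slc25a31 had an E-box at -93, counted from the annotated start as 0. The table held 49 promoters of 39 carriers. On either strand, TTCNNNGAA was in 3 of the 49 (Slc25a36, Slc25a54 and Ucp3), against 8.3% of all 32851 promoters. CACGTG was in 8 of the 49, which belong to Slc25a1, Slc25a13, Slc25a14, Slc25a15, Slc25a31, Slc25a33 and Slc25a36, against 7.15% of all. The same Slc25a14 site was counted more than once, as it lies in overlapping windows of alternative starts (at -54 and -184). The ERR motif TCAAGGTCA, the DR1 motif (AGGTCA repeated after any base), the NRF1 motif and the ATF4 motif TGATGCAAT were in 0 of the 49, against 0.423%, 0.0396%, 0.971% and 0.192% of all promoters. No 2 of these motifs overlapped in the printed windows. These are letter matches only.

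Library totals ran between 4703902 and 5804033 counts. Levels are counts per 1000000 (CPM) of the TMM-scaled total, and 3 counts, the least a library could be said to show, were 0.498 to 0.663 CPM. The IL-22 response gene Socs3 had 205, 220 and 217 CPM with both cytokines, 197, 218 and 210 CPM with IL-22, 11.4, 10.3 and 11.1 CPM with IL-1b and 19.0, 13.8 and 7.38 CPM in unstimulated libraries. Nos2 had 107.4, 120.5 and 130.4 CPM with IL-1b, above the 41.8, 22.1 and 25.7 CPM of unstimulated libraries. It was also higher with IL-22 (83.0, 106.3 and 145.2 CPM) and with both cytokines (207.3, 248.9 and 246.5 CPM). All 10 colon epithelium markers were detected (summed CPM 3019 to 3133 with both, 2930 to 3267 with IL-22, 2620 to 2867 with IL-1b and 2829 to 2955 unstimulated). Of 8 fibroblast and muscle markers none reached the level for testing (sums 0.201 to 4.22 CPM over all libraries, with Col3a1 at 0 in 3 of the 4 groups). Leukocyte markers (10 genes, 4 tested, Tyrobp at 0 throughout) summed to 15.1 to 21.4 CPM with both, 12.2 to 23.9 CPM with IL-22, 16.9 to 53.7 CPM with IL-1b and 6.71 to 8.35 CPM unstimulated. Endothelial markers (4 genes, 2 tested, Cdh5 at 0 in 3 groups) summed to 1.71 to 5.47 CPM with both, 2.87 to 3.09 CPM with IL-22, 8.44 to 11.7 CPM with IL-1b and 7.94 to 10.1 CPM unstimulated. Colonocyte markers (7 genes, all tested) summed to 1687 to 1738 CPM with both, 1655 to 1845 CPM with IL-22, 1480 to 1607 CPM with IL-1b and 1499 to 1677 CPM unstimulated. Enteroendocrine and tuft cell markers (5 genes, 4 tested) summed to 246.1 to 254 CPM with both, 255.2 to 314.6 CPM with IL-22, 257.7 to 277.7 CPM with IL-1b and 285.5 to 295.5 CPM unstimulated. Markers of stem and dividing cells (5 genes, 4 tested) summed to 338.6 to 365.1 CPM with both, 335.4 to 539.3 CPM with IL-22, 254.8 to 337.7 CPM with IL-1b and 306.7 to 356 CPM unstimulated. Goblet cell markers (6 genes, all tested) summed to 1808 to 1940 CPM with both, 1813 to 2102 CPM with IL-22, 1700 to 1940 CPM with IL-1b and 1958 to 1986 CPM unstimulated. The part of these shifts in the carrier results was not tested.

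The carriers together made up 0.324 to 0.36% of each library's counts, and their summed level was 3336 ± 25.4 CPM with both cytokines, 3389 ± 106.5 CPM with IL-22, 3396 ± 93.6 CPM with IL-1b and 3484 ± 48.3 CPM unstimulated (SD, n = 3 each). Per kilobase of transcript the tested carriers spanned 0.554 to 162.7 CPM per kb, with a median of 21.9. Slc25a5, the main ADP/ATP carrier of dividing cells, stood highest at 162.7 CPM per kb. After it came the phosphate carrier Slc25a3 at 127.5, the acylcarnitine carrier Slc25a20 at 111, the dicarboxylate carrier Slc25a10 at 103, the citrate carrier Slc25a1 at 96.6 and the glutathione carrier Slc25a39 at 94.0 CPM per kb. Then came the oxoglutarate carrier Slc25a11 at 81.4, the ATP-Mg/phosphate carrier Slc25a24 at 73.8, and Ucp2, an uncoupling protein relative common in epithelium and immune cells, at 53.0 CPM per kb. The order leans on the transcript chosen: the NAD carrier Slc25a51 stood at 46.6 CPM per kb over its longest principal transcript and at 205.9 over its shortest.

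**Figure D1:**
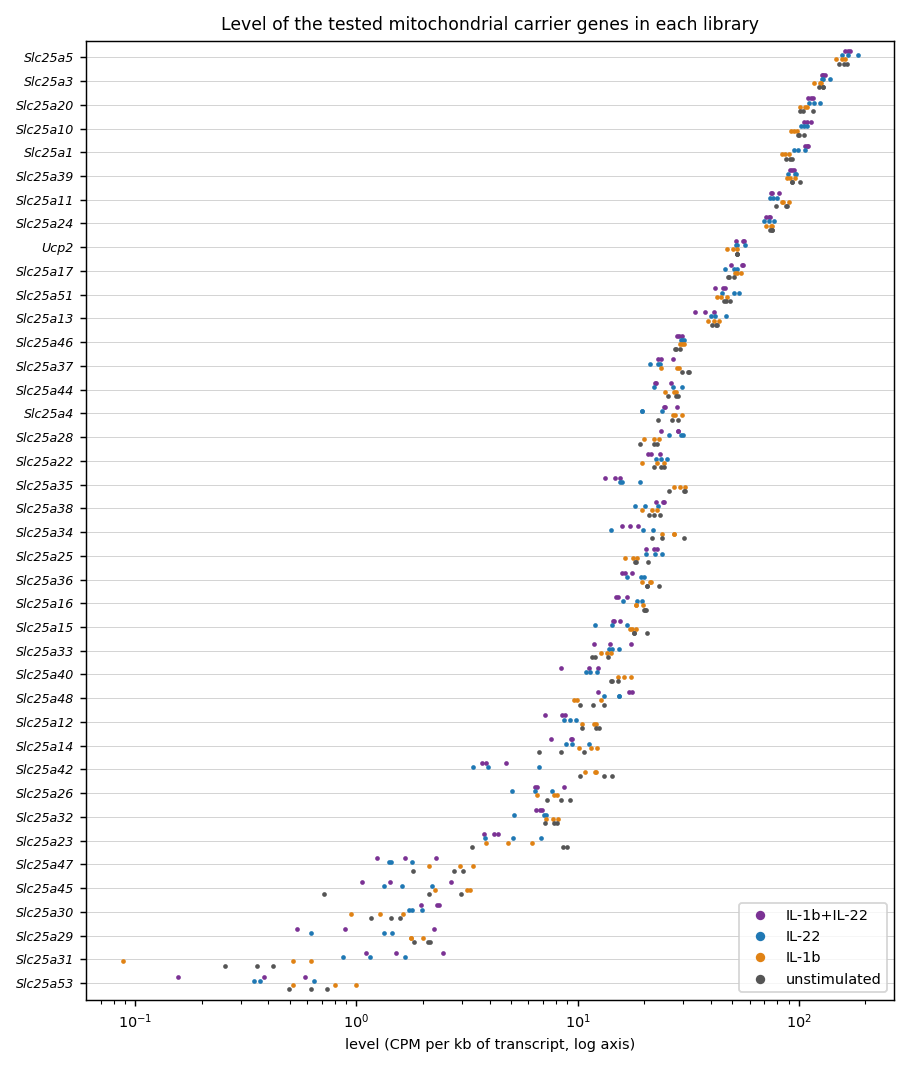
Level of the tested carriers in CPM per kilobase of transcript on a log axis, 1 point per library, coloured by group. The carriers span 0.554 (Slc25a53) to 162.7 CPM per kb (Slc25a5), a range far wider than the shifts between groups.

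Some of the abundant carriers barely varied between libraries. Slc25a5 had 989 to 1106 counts in the 12 libraries (variance over mean 1.11), Slc25a20 had 966 to 1092 (1.40) and Slc25a3 had 987 to 1140 (2.45). Others varied more, with 1135 to 1465 for Slc25a24 (8.34), 865 to 1200 for Slc25a51 (8.13) and 604 to 877 for Slc25a11 (12.2). The ratio was 45.4 for the coenzyme A carrier Slc25a42, 31.6 for Slc25a35 and 25.5 for Slc25a34, all called lower with IL-22. The ratio was taken on raw counts over the 12 libraries of all 4 groups. It therefore holds differences in library total and shifts between groups as well as spread within them. Whether fold changes of abundant genes are compressed in this table was not tested. A value near 0 for abundant carriers cannot be read as no change. Of the tested carriers 7 stood at 0.4 counts per transcript base or more, where the median log2 fold change with IL-22 of all 1076 such genes was 0.11. In the class of 0.02 to 0.1 counts per base it was -0.06 over 4477 genes and -0.31 over the 12 carriers there. An alternative fit with this level trend removed took out of each library a smooth curve of log level against counts per transcript base.

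Of the 50 carriers 9 were too low to test. Ucp1, the brown fat uncoupler, had 0 counts in all 12 libraries, which allows up to 0.498 to 0.663 CPM per library, counting error only. Ucp3, Slc25a2, Slc25a18, Slc25a21 and Slc25a54 had 0 to 2 counts a library, Slc25a43 had 0 to 4, Slc25a41 had 2 to 9 and Slc25a27 had 2 to 16. Slc25a18 is a glutamate carrier, Slc25a21 an oxoadipate carrier and Slc25a41 an ATP-Mg/phosphate carrier.

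With IL-22 alone against unstimulated, 2 of the 41 tested carriers rose and 7 fell, which is 22%, against 22.5% of all 13987 genes tested (11.9% higher and 10.6% lower). The share called was thus near the background, and the median log2 fold change was -0.06 over the carriers against 0 over all genes. The carriers that fell were Slc25a42, Slc25a35, Slc25a37, Slc25a34, Slc25a15, Slc25a12 and Slc25a4, and those that rose were Slc25a31 and Slc25a28. Slc25a31 passed the filter on low counts only through the groups with IL-22, so its call carries no weight. In bulk RNA, fewer cells of a type and less RNA per cell cannot be told apart. The count rested on unstimulated replicate 2, without which 1 carrier was called higher and 3 lower, while the share of all genes called also dropped, to 14.1%.

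With both cytokines against unstimulated, 5 carriers rose and 9 fell (34.1% of 41), against 27% of all genes, and the medians were -0.10 over the carriers and 0.00 over all genes. Slc25a42, Slc25a35, Slc25a34, Slc25a12, Slc25a40, Slc25a36, Slc25a16, Slc25a15 and Slc25a37 fell, and Slc25a31, Slc25a30, Slc25a48, Slc25a28 and Slc25a1 rose. The call on Slc25a31 carries no weight here either, for the same reason. This comparison shares its unstimulated libraries with the one of IL-22 alone. Without unstimulated replicate 2, or without IL-1b+IL-22 replicate 3, the calls were 2 higher and 7 lower, with 19% and 18.8% of all genes called. With total counts in place of TMM the split was 3 higher and 10 lower, and that of all genes was 10.7% higher and 16.1% lower.

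Both cytokines against IL-1b alone is the comparison of IL-22 on a background of IL-1b, and its groups share no library with IL-22 against unstimulated. The tests still come from the same fit, where all libraries share the filter, scaling and estimate of spread, so the calls are not fully independent. Both cytokines against IL-1b called 7 carriers higher and 7 lower (34.1% of 41), against 26.3% of all genes. The median was -0.11 over the carriers and 0.00 over all genes. Slc25a42, Slc25a35, Slc25a34 and Slc25a12 were lower in both of these comparisons, and Slc25a28 and Slc25a31 were higher in both. How many of all genes were called in both was not counted, so this overlap is a description only. Slc25a31 passed the filter on low counts only through the groups with IL-22, so its part in these calls carries no weight. Without IL-1b+IL-22 replicate 3 the calls were 4 higher and 6 lower, against 19.5% of all genes called.

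IL-1b against unstimulated called 0 of the 41 carriers with edgeR, against 0.0715% of all genes. At an unadjusted p under 0.05 there were 2, DESeq2 called 0, the lowest adjusted p was 0.452, and log2 fold changes ran between -0.49 and 0.58. Both cytokines against IL-22 alone called 0 with edgeR, against 0.0786% of all genes, with 6 at an unadjusted p under 0.05, 0 by DESeq2 and log2 fold changes between -0.36 and 0.47. For the interaction of the cytokines edgeR called 0 carriers and 0% of all genes, with 3 carriers at an unadjusted p under 0.05 and 0 by DESeq2. A p over the threshold does not show that IL-1b left the carriers alone.

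**Figure D2:**
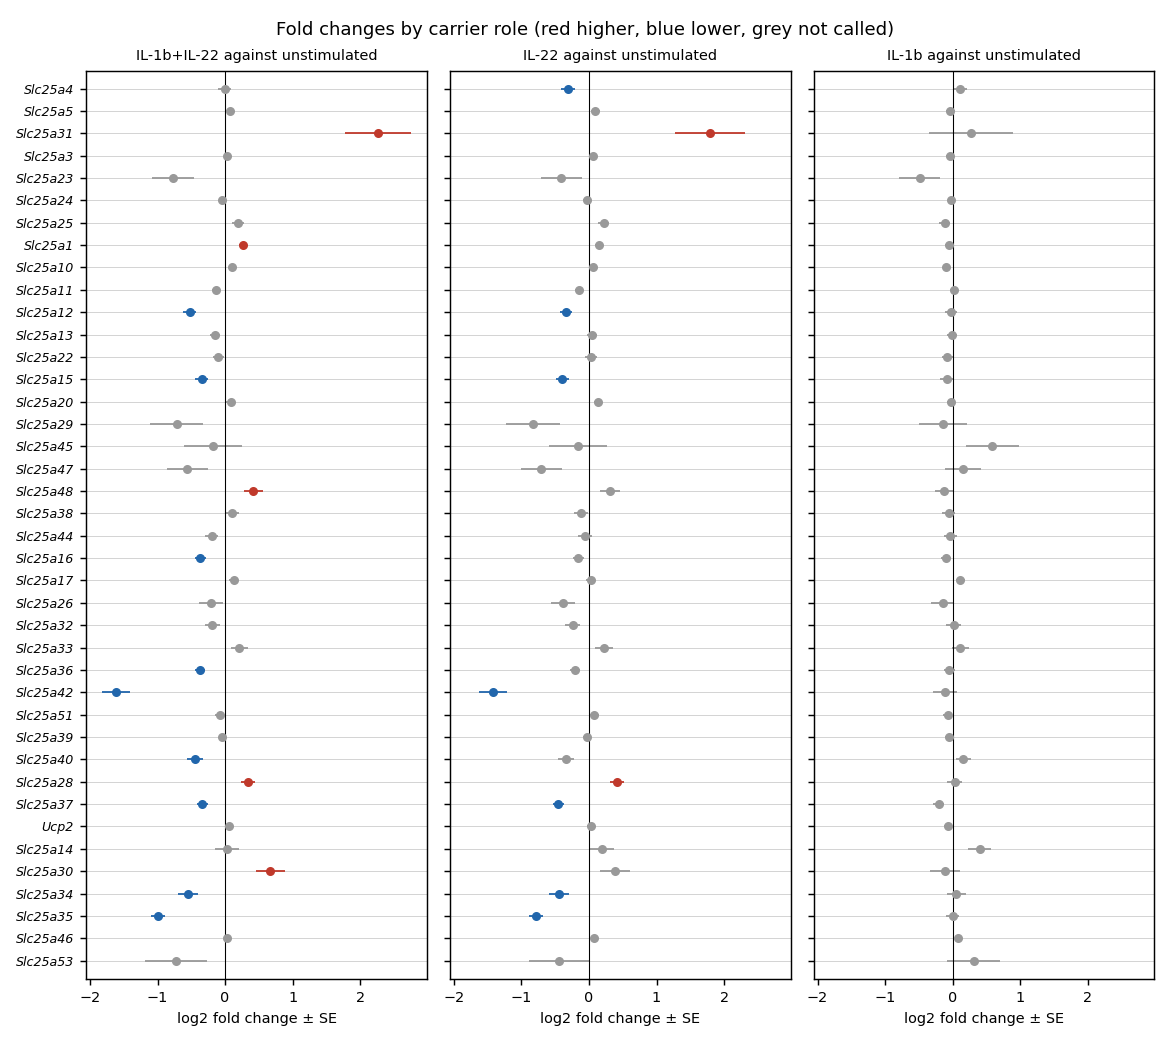
Log2 fold change of the tested carriers (points, with standard error bars) for IL-1b+IL-22, IL-22 and IL-1b, each against unstimulated, in red where called higher, blue where called lower and grey where not called. Slc25a42 lies farthest below 0 and Slc25a31 farthest above 0 in the groups with IL-22, and 0 carriers are coloured for IL-1b alone.

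Among the carriers of cofactors and nucleotides (9 tested), 1 fell with IL-22 and 3 fell with both cytokines, against 10.6% and 13.3% of all genes lower in these comparisons. Slc25a42 brings coenzyme A into the matrix in exchange for adenine nucleotides, and its gene lies at chr8:70184340-70212305 on the minus strand. Slc25a42 had 12.3, 15.2 and 11.8 CPM with both cytokines, 10.7, 12.6 and 21.4 CPM with IL-22, 34.5, 38.6 and 38.5 CPM with IL-1b, and 42.1, 45.9 and 32.9 CPM unstimulated. Every library with IL-22 was below every library without it, although IL-22 replicate 3 stood above the other two of its group. It changed on the log2 scale by -1.42 ± 0.20 with IL-22 (SE; adjusted p = 0.000221), -1.62 ± 0.21 with both (adjusted p = 6.45e-05) and -1.50 ± 0.21 for both against IL-1b (adjusted p = 0.000146). With IL-1b alone it was -0.12 ± 0.18 (adjusted p = 0.843).

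Slc25a36, which carries pyrimidine nucleotides and whose promoter holds the STAT and E-box letters above, had 92.0, 85.6 and 83.2 CPM with both cytokines, 87.3, 101 and 105 CPM with IL-22, 112, 113 and 102 CPM with IL-1b, and 122, 108 and 108 CPM unstimulated. The libraries with both cytokines were the lowest group and did not overlap with unstimulated or IL-1b libraries. As a log2 fold change this was -0.37 ± 0.08 with both (adjusted p = 0.00331), -0.32 ± 0.08 for both against IL-1b (adjusted p = 0.00865) and -0.20 ± 0.08 with IL-22 (adjusted p = 0.0781). The last was called without IL-22 replicate 3 (-0.26).

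Slc25a16, a relative of the yeast coenzyme A carrier, averaged 49.2 ± 3.05 CPM with both, 56.8 ± 5.84 CPM with IL-22, 59.2 ± 2.84 CPM with IL-1b and 63.5 ± 0.81 CPM unstimulated (SD, n = 3 each). It fell with both cytokines by 0.37 ± 0.08 on the log2 scale (adjusted p = 0.00444), and no library with both reached the unstimulated ones. Against IL-1b the log2 fold change was -0.27 ± 0.08 (adjusted p = 0.0282). That call was lost without IL-1b replicate 1, 2 or 3 or IL-1b+IL-22 replicate 2 or 3 (adjusted p = 0.0503 to 0.101), with DESeq2 (adjusted p = 0.0684) and with no filter (adjusted p = 0.0542). The carriers of this class for peroxisomal cofactors (Slc25a17), S-adenosylmethionine (Slc25a26), folate (Slc25a32), pyrimidine nucleotides (Slc25a33) and NAD (Slc25a51), were not called in any comparison.

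Slc25a35 and Slc25a34 are close relatives of the yeast oxaloacetate carrier, and what they carry in mammals is less certain. Slc25a35, at chr11:68968131-68974365 on the plus strand, had 28.4, 27.0 and 24.4 CPM with both cytokines, 28.4, 34.9 and 29.1 CPM with IL-22, 50.0, 55.9 and 53.2 CPM with IL-1b, and 56.2, 55.5 and 47.3 CPM unstimulated. The libraries with IL-22 all lay below those without it. The log2 fold change was -0.79 ± 0.10 with IL-22 (adjusted p = 0.000111), -0.99 ± 0.10 with both (adjusted p = 1.25e-05) and -0.995 ± 0.104 for both against IL-1b (adjusted p = 1.42e-05). Its exons share 1151 bases with Rangrf on the opposite strand. The kit keeps strand per the labels' protocols, but the counting strand is not given in the sources used here, so reads of the pair cannot be told apart.

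Slc25a34, at chr4:141618824-141623821 on the minus strand, had 49.9, 42.6 and 46.0 CPM with both cytokines, 37.7, 58.8 and 52.7 CPM with IL-22, 64.5, 73.2 and 73.2 CPM with IL-1b, and 64.5, 80.7 and 57.7 CPM unstimulated. Both cytokines together gave the lowest group, while IL-22 replicate 2 overlapped the unstimulated libraries. edgeR put the log2 fold change at -0.55 ± 0.15 with both (adjusted p = 0.0123), -0.61 ± 0.14 for both against IL-1b (adjusted p = 0.00712) and -0.45 ± 0.14 with IL-22 (adjusted p = 0.0394). The IL-22 call needed each of unstimulated replicates 1 and 2, IL-22 replicate 1, and IL-1b replicates 2 and 3 (adjusted p = 0.0504 to 0.195 without them in turn, log2 fold change -0.29 without IL-22 replicate 1). It was also missed with the level trend removed (adjusted p = 0.0507) and with only the libraries compared (adjusted p = 0.0886). The call with both was lost without unstimulated replicate 2 (adjusted p = 0.0685). Of the others in this class, Slc25a46, an outer membrane protein of mitochondrial shape, averaged 127.3 CPM over all libraries and Slc25a53 had 2 to 14 counts a library, and neither was called.

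**Figure D3:**
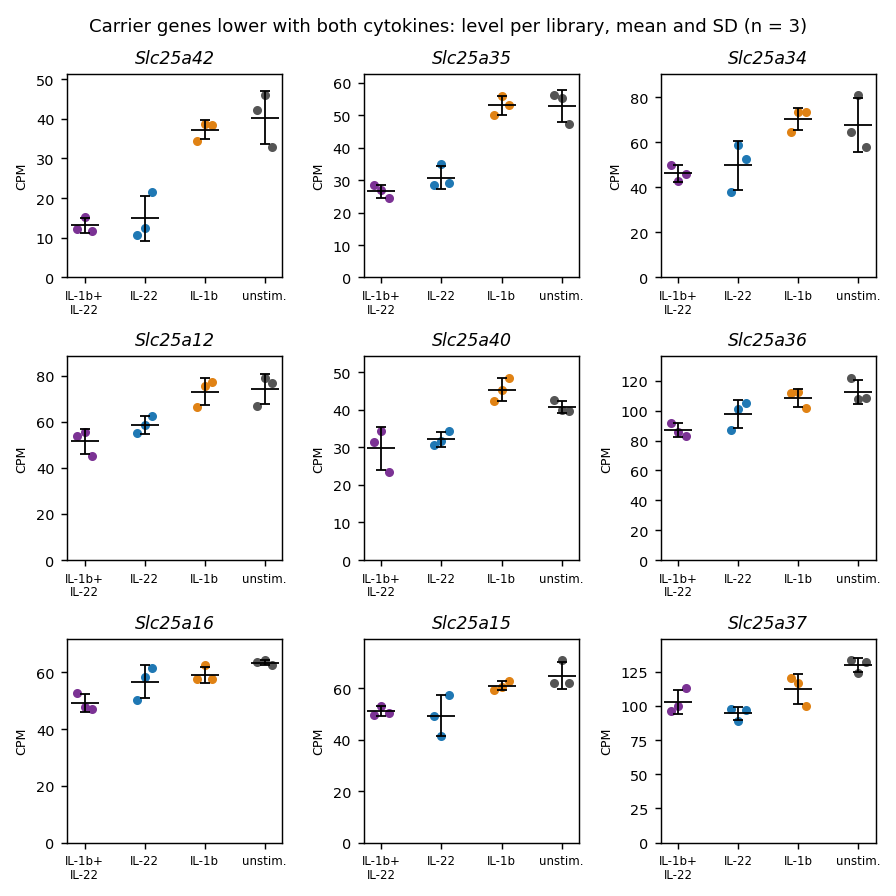
CPM per library (points) with the group mean and SD (line and bars, n = 3) for the 9 carriers called lower with both cytokines, from left to right both cytokines, IL-22, IL-1b and unstimulated. Slc25a42 and Slc25a35 separate the libraries with IL-22 from those without it.

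The mitoferrins bring iron into the matrix for heme and iron-sulphur clusters, and against unstimulated the pair was called in opposite directions. Slc25a37, mitoferrin-1, known best from red cell precursors, had 96.2, 99.9 and 113 CPM with both cytokines, 98.0, 88.8 and 96.9 CPM with IL-22, 121, 117 and 99.8 CPM with IL-1b, and 133, 124 and 132 CPM unstimulated. It was lower in each library with IL-22 than in any unstimulated one, by -0.46 ± 0.08 on the log2 scale with IL-22 (adjusted p = 0.00115) and -0.34 ± 0.08 with both (adjusted p = 0.00656). For both against IL-1b it was not called (-0.13 ± 0.08, adjusted p = 0.266), and those libraries overlapped. Slc25a28, mitoferrin-2, the widely used form, had 43.9, 36.8 and 43.9 CPM with both, 45.1, 40.0 and 46.1 CPM with IL-22, 30.6, 35.8 and 34.0 CPM with IL-1b, and 35.0, 34.1 and 29.3 CPM unstimulated. The libraries with IL-22 all lay above those without it. Its log2 fold change was 0.42 ± 0.10 with IL-22 (adjusted p = 0.0113), 0.34 ± 0.10 with both (adjusted p = 0.0292) and 0.31 ± 0.10 for both against IL-1b (adjusted p = 0.0431).

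Per kilobase, Slc25a28 over Slc25a37 was 1.24, 1.00 and 1.06 with both cytokines, 1.25, 1.22 and 1.29 with IL-22, 0.690, 0.832 and 0.926 with IL-1b, and 0.714, 0.749 and 0.602 unstimulated. Per kilobase, mitoferrin-2 thus stood level with or above mitoferrin-1 in all libraries with IL-22 and below it in the others, a description with no test. Which of the pair stands higher leans on the transcripts chosen (1535 bases for Slc25a28 and 4174 for Slc25a37), though the shift of the ratio between groups does not. In CPM Slc25a37 was above Slc25a28 in every library. The IL-22 calls on both genes held without any single library. The call on Slc25a28 with both cytokines rested on each of unstimulated replicates 2 and 3 and IL-1b+IL-22 replicates 1 and 3 (adjusted p = 0.0542 to 0.112 without them in turn), and it was missed with total counts, DESeq2 and only the libraries compared (adjusted p = 0.0585 to 0.0625). Against IL-1b the call rested on unstimulated replicate 2, IL-1b replicates 1 and 3, and IL-1b+IL-22 replicates 1 and 3 (adjusted p = 0.0541 to 0.155), and it was missed with total counts, DESeq2 and no filter (adjusted p = 0.0511 to 0.111). Slc25a37 shares 381 exon bases with Gm31748 and 92 with Gm27223, both on the opposite strand. Its interaction value was 0.33 ± 0.11 (unadjusted p = 0.0119, adjusted p = 0.924).

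The ADP/ATP carriers trade matrix ATP for cytosolic ADP. Slc25a31, the form known from male germ cells in the mouse, had 26, 12 and 15 counts with both cytokines, 9, 16 and 13 with IL-22, 6, 1 and 8 with IL-1b, and 5, 3 and 4 unstimulated. In CPM these were 5.23, 2.35 and 3.21 with both, 1.85, 3.54 and 2.44 with IL-22, 1.10, 0.188 and 1.33 with IL-1b, and 0.889, 0.544 and 0.757 unstimulated. The libraries with IL-22 all lay above those without it. The level of Slc25a31 over all libraries was 0.917 CPM per kb, against 162.7 for Slc25a5. On the log2 scale the change was 2.26 ± 0.49 with both (adjusted p = 0.00377), 1.80 ± 0.52 with IL-22 (adjusted p = 0.0238) and 1.99 ± 0.47 for both against IL-1b (adjusted p = 0.00677). Slc25a31 passed the filter on low counts only through the groups with IL-22. Its calls and its separation between groups therefore describe the values and carry no weight as tests. The IL-22 call on Slc25a31 needed unstimulated replicate 2 (adjusted p = 0.0896 without it) and IL-22 replicate 2 (0.0979 without it).

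Slc25a4, the main form of heart and muscle, had 47.9, 54.1 and 47.5 CPM with both cytokines, 46.5, 37.6 and 37.6 CPM with IL-22, 53.3, 52.2 and 57.2 CPM with IL-1b, and 44.4, 54.8 and 51.5 CPM unstimulated. IL-22 and unstimulated libraries overlapped. The log2 fold change was -0.31 ± 0.10 with IL-22 (adjusted p = 0.0482) and -0.01 ± 0.10 with both (adjusted p = 0.958). The call did not hold on leaving out unstimulated replicate 2 or 3, IL-22 replicate 2 or 3, any of the IL-1b replicates, or IL-1b+IL-22 replicate 1 or 3, with adjusted p up to 0.193. It was also missed with DESeq2, no filter, a filter of 1 CPM in 6 libraries, the level trend removed or only the libraries compared (adjusted p = 0.0505 to 0.0996). Slc25a5 had 208, 202 and 212 CPM with both, 208, 229 and 195 CPM with IL-22, 194, 200 and 183 CPM with IL-1b, and 188, 198 and 205 CPM unstimulated, and was not called (0.10 ± 0.06 with IL-22). Slc25a4 stood at 0.106 to 0.201 of Slc25a5 per kilobase over all libraries. The phosphate carrier Slc25a3, which supplies the other substrate of ATP synthase and also copper, was not called either (0.06 ± 0.05 with IL-22 and 0.03 ± 0.05 with both).

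Aspartate leaves the matrix in exchange for glutamate through Slc25a12 and Slc25a13, as a step of the malate-aspartate shuttle. Slc25a12, the form of brain and muscle, at chr2:71271063-71367749 on the minus strand, had 53.9, 55.5 and 45.4 CPM with both cytokines, 55.0, 58.5 and 62.5 CPM with IL-22, 66.5, 75.4 and 77.3 CPM with IL-1b, and 66.8, 79.1 and 77.0 CPM unstimulated. All libraries with IL-22 were below all others. As a log2 fold change this was -0.52 ± 0.10 with both (adjusted p = 0.00112), -0.50 ± 0.10 for both against IL-1b (adjusted p = 0.00166) and -0.34 ± 0.09 with IL-22 (adjusted p = 0.0188). The IL-22 call needed unstimulated replicates 2 and 3 and IL-22 replicates 1 and 2 (adjusted p = 0.0522 to 0.0865 without them in turn), and it was lost with the level trend removed (-0.26, adjusted p = 0.0649). Slc25a13, the form of liver, stood higher per kilobase (41.0 against 10.1 CPM per kb) and was not called, at 0.04 ± 0.08 with IL-22 and -0.15 ± 0.08 with both. The glutamate carrier Slc25a22 was not called, at 0.03 ± 0.09 with IL-22 and -0.10 ± 0.09 with both.

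Slc25a1 exports citrate for fat synthesis in the cytosol. It had 177, 183 and 184 CPM with both cytokines, 165, 177 and 158 CPM with IL-22, 144, 150 and 140 CPM with IL-1b, and 152, 155 and 146 CPM unstimulated. The libraries with both overlapped those with IL-22 and lay above all others. Its fitted log2 fold change was 0.26 ± 0.06 with both (adjusted p = 0.00275) and 0.32 ± 0.06 for both against IL-1b (adjusted p = 0.000713), and it was 0.15 (adjusted p = 0.0272) with both once the level trend was removed. With IL-22 alone it was 0.14 ± 0.06 (adjusted p = 0.0752), and 0.18 and called without IL-22 replicate 3.

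Slc25a10, the dicarboxylate carrier, was higher with both cytokines than with IL-1b by 0.20 ± 0.05 (adjusted p = 0.0078), but by 0.09 (adjusted p = 0.221) with the level trend removed. Slc25a11, the oxoglutarate and malate carrier, stood at -0.14 ± 0.06 with both (adjusted p = 0.111) and -0.14 ± 0.06 with IL-22 (adjusted p = 0.109). It was called lower in both comparisons without unstimulated replicate 1 (-0.19 with both and -0.20 with IL-22) and with the level trend removed (-0.24 in each, adjusted p = 0.00533 with both and 0.00632 with IL-22). Total counts also called it (adjusted p = 0.041 with both and 0.0262 with IL-22). For both against IL-1b it was not called, but was with the level trend removed (-0.26, adjusted p = 0.00323). Total counts, only the libraries compared, and leaving out unstimulated replicate 1 also called it there (adjusted p = 0.0145 to 0.0443).

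Of 6 tested carriers of ornithine, basic amino acids and acylcarnitine, 1 fell with IL-22 (10.6% of all genes lower), and 1 rose and 1 fell with both (13.7% of all genes higher and 13.3% lower), which is near the background. Slc25a15 brings ornithine into the matrix for the urea cycle and related steps. It had 49.7, 53.2 and 50.3 CPM with both cytokines, 49.2, 41.3 and 57.2 CPM with IL-22, 59.4, 60.6 and 62.9 CPM with IL-1b, and 62.0, 70.7 and 61.9 CPM unstimulated. Its libraries with IL-22 were all below those without it. The log2 fold change was -0.39 ± 0.10 with IL-22 (adjusted p = 0.0113) and -0.35 ± 0.10 with both (adjusted p = 0.0186). The first was lost without unstimulated replicate 2 (adjusted p = 0.0622), and the second without that library or IL-1b+IL-22 replicate 1 or 3 (adjusted p = 0.0563 to 0.0896). For both against IL-1b Slc25a15 was not called. It was called lower there with total counts (-0.31, adjusted p = 0.0375) and with only the libraries compared (-0.26, adjusted p = 0.015). The same held without IL-22 replicate 2 or 3 (adjusted p = 0.0312 and 0.0331).

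Slc25a48, which has been linked to choline import, had 41.7, 57.9 and 59.3 CPM with both cytokines, 44.3, 51.7 and 51.7 CPM with IL-22, 42.9, 32.6 and 33.5 CPM with IL-1b, and 44.6, 34.5 and 39.5 CPM unstimulated. IL-1b+IL-22 replicate 1 overlapped the unstimulated libraries. On the log2 scale the change was 0.42 ± 0.14 with both (adjusted p = 0.0434) and 0.54 ± 0.14 for both against IL-1b (adjusted p = 0.0132). The call with both rested on unstimulated replicates 2 and 3, IL-22 replicate 2, IL-1b replicate 3, and IL-1b+IL-22 replicates 2 and 3 (adjusted p = 0.0523 to 0.169 without them in turn), and it was missed with total counts (adjusted p = 0.0605) and with only the libraries compared (adjusted p = 0.0678). Against IL-1b it was lost without IL-1b replicate 2 or 3 or IL-1b+IL-22 replicate 2 or 3 (adjusted p = 0.052 to 0.0664).

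Slc25a20, which exchanges acylcarnitine for carnitine in fat oxidation, stood at 197, 202 and 207 CPM with both, 209, 223 and 198 CPM with IL-22, 190, 195 and 181 CPM with IL-1b, and 181, 186 and 207 CPM unstimulated. It was not called, at 0.14 ± 0.06 with IL-22 (adjusted p = 0.13), but was called at 0.19 without unstimulated replicate 3. The basic amino acid carrier Slc25a29 had 5 to 24 counts a library and was called lower with both only without IL-1b+IL-22 replicate 1 (-1.48, adjusted p = 0.0129). Slc25a45 and Slc25a47, at 10 to 44 and 10 to 29 counts, were not called.

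Slc25a39 and Slc25a40 bring glutathione into the matrix. Slc25a40 had 31.4, 34.4 and 23.3 CPM with both cytokines, 30.5, 31.6 and 34.2 CPM with IL-22, 42.3, 45.2 and 48.4 CPM with IL-1b, and 42.5, 39.9 and 39.5 CPM unstimulated. Its libraries with IL-22 were all below those without it. It changed on the log2 scale by -0.45 ± 0.12 with both (adjusted p = 0.0126), -0.61 ± 0.12 for both against IL-1b (adjusted p = 0.00189) and -0.34 ± 0.12 with IL-22 (adjusted p = 0.0533). The call with both was lost without IL-1b+IL-22 replicate 3 (-0.31, adjusted p = 0.0505), and the IL-22 value was called without IL-1b+IL-22 replicate 2 or 3 (adjusted p = 0.0346 and 0.0173). Slc25a39, the more abundant of the pair at 94.0 against 13.3 CPM per kb, was not called (-0.03 ± 0.06 with IL-22 and -0.04 ± 0.06 with both).

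Among the uncoupling proteins and relatives, Slc25a30, a relative first described in kidney, had 8.45, 7.04 and 8.35 CPM with both cytokines, 6.18, 7.07 and 6.39 CPM with IL-22, 4.58, 3.38 and 5.80 CPM with IL-1b, and 5.15, 4.17 and 5.67 CPM unstimulated. The libraries with IL-22 all lay above those without it. The log2 fold change was 0.67 ± 0.21 with both (adjusted p = 0.0329), 0.78 ± 0.22 for both against IL-1b (adjusted p = 0.016) and 0.39 ± 0.22 with IL-22 (adjusted p = 0.231). The call with both rested on unstimulated replicates 1 and 2 and IL-1b+IL-22 replicates 1 and 3 (adjusted p = 0.0679 to 0.125 without them in turn), and that against IL-1b on IL-1b replicate 2 and IL-1b+IL-22 replicates 1 and 3 (adjusted p = 0.0503 to 0.0676). DESeq2 made neither call (adjusted p = 0.111 with both and 0.0568 against IL-1b).

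Ucp2 had 208, 225 and 224 CPM with both, 210, 228 and 207 CPM with IL-22, 201, 211 and 190 CPM with IL-1b, and 209, 211 and 210 CPM unstimulated, and was not called (0.03 ± 0.06 with IL-22 and 0.06 ± 0.06 with both). Slc25a14 was not called, at 0.19 ± 0.17 with IL-22 and 0.40 ± 0.17 with IL-1b.

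**Figure D4:**
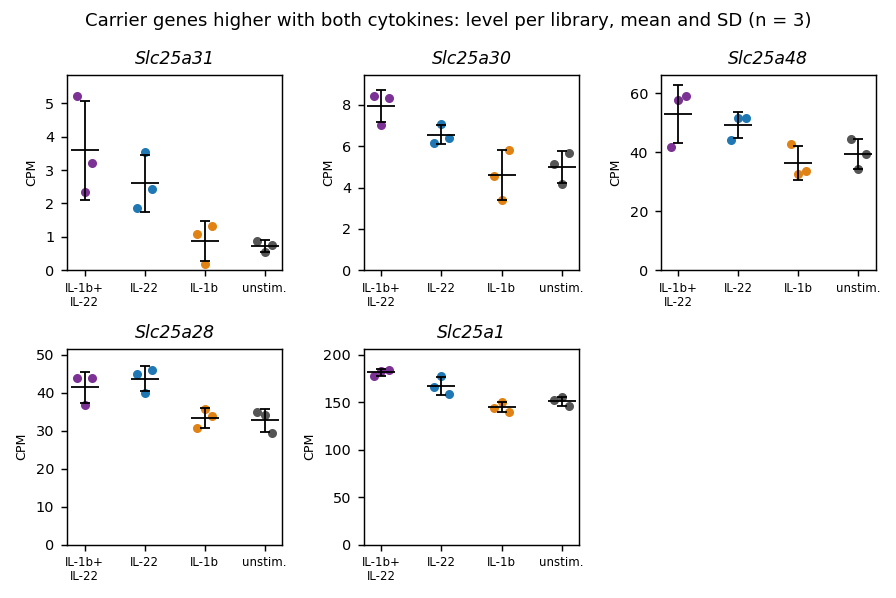
CPM per library (points) with the group mean and SD (line and bars, n = 3) for the 5 carriers called higher with both cytokines, from left to right both cytokines, IL-22, IL-1b and unstimulated. Slc25a31, Slc25a30 and Slc25a28 lie higher in every library with IL-22 than in any without it. Slc25a31 passed the filter on low counts only through the groups with IL-22.

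The calcium-regulated ATP-Mg/phosphate carriers set the adenine nucleotide pool of the matrix. Slc25a25 had 73.0, 75.3 and 67.4 CPM with both cytokines and 53.9, 58.7 and 61.4 CPM with IL-1b, with no overlap. Its log2 fold change there was 0.31 ± 0.08 (adjusted p = 0.014), lost without IL-1b replicate 1 (adjusted p = 0.0643) or IL-1b+IL-22 replicate 2 (adjusted p = 0.0504). Against unstimulated it was not called with both (0.19 ± 0.08) or with IL-22 (0.22 ± 0.08), though IL-22 was called without unstimulated replicate 1 or IL-22 replicate 3 (0.28 in each).

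Slc25a23 had 12.7, 14.1 and 14.8 CPM with both, 12.8, 17.2 and 22.9 CPM with IL-22, 13, 21 and 16.2 CPM with IL-1b, and 30.2, 29.0 and 11.2 CPM unstimulated. Unstimulated replicate 3 stood apart from the other two. Its fitted log2 fold change was -0.77 ± 0.31 with both (adjusted p = 0.0819) and -0.41 ± 0.30 with IL-22 (adjusted p = 0.365). With no filter the call with both was made (adjusted p = 0.00567). Without that library it was called lower, at -1.10 with both (adjusted p = 0.00252) and -0.74 with IL-22 (adjusted p = 0.0245). Slc25a24 was not called (-0.03 ± 0.05 with IL-22 and -0.04 ± 0.05 with both), but was called lower with the level trend removed, at -0.12 with IL-22 (adjusted p = 0.0492) and -0.14 with both (adjusted p = 0.0292). Slc25a38, a glycine carrier, and Slc25a44, a carrier of branched-chain amino acids, were not called, at -0.12 ± 0.10 and -0.06 ± 0.10 with IL-22.

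**Figure D5:**
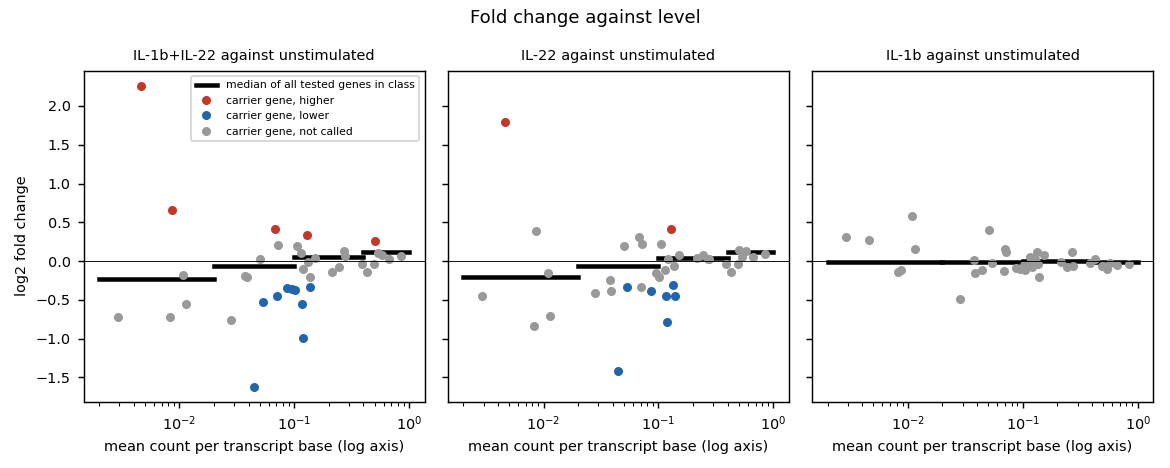
Log2 fold change (y) by mean counts per transcript base (x, log axis) for IL-1b+IL-22, IL-22 and IL-1b, each against unstimulated, with 1 point per carrier (red called higher, blue called lower, grey not called) and black lines for the medians of all tested genes in each class of level. With IL-22 the class medians climb with level, between -0.21 below 0.02 and 0.11 at 0.4 counts per base or more, and with IL-1b alone they lie between -0.015 and -0.004.

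The enzymes that work beside the carriers were counted in gene lists, to be read against the 11.9% of all genes higher and 10.6% lower with IL-22. With IL-22, the sideroflexin, pyruvate, calcium and ABC carriers (13 tested) had 0 higher and 3 lower: Sfxn3 (-1.30 ± 0.10, adjusted p = 1.74e-06), Sfxn5 (-0.88 ± 0.18) and the serine carrier Sfxn1 (-0.43 ± 0.06). Of 12 enzymes of the carnitine shuttle and acylcarnitine oxidation, Acadl rose (0.44 ± 0.06) and Cpt1a (-0.49 ± 0.08), Crat (-0.40 ± 0.08) and Acadm (-0.24 ± 0.06) fell, and 8 rather than 3 were lower with the level trend removed. Of 11 biogenesis regulators Ppard rose (0.39 ± 0.06), while Ppara (-1.58 ± 0.25), Ppargc1a (-0.88 ± 0.13) and Ppargc1b (-0.57 ± 0.14), activators of mitochondrial gene programs, fell. Of 10 enzymes of arginine and ornithine metabolism, Aldh18a1 rose (0.62 ± 0.07), and Otc (-1.12 ± 0.22) and Oat (-0.31 ± 0.06) fell.

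Of 7 enzymes of mitochondrial one-carbon metabolism, Mthfd2 (0.71 ± 0.06), Mthfd1l (0.59 ± 0.09), Shmt2 (0.54 ± 0.08) and Aldh1l2 (0.50 ± 0.13) rose and Amt (-0.92 ± 0.22) fell. Of 12 stress response genes (mitochondrial chaperones and proteases and the ATF4 pathway) 5 rose and 0 fell, Chac1 (1.02 ± 0.10), Gdf15 (0.69 ± 0.14), Asns (0.58 ± 0.06), Atf5 (0.39 ± 0.12) and Atf4 (0.25 ± 0.06). Among 6 shuttle enzymes 1 rose, Gpd1 (0.70 ± 0.10). Among 9 enzymes of citrate use Idh1 rose (0.30 ± 0.06) and Idh2 fell (-0.27 ± 0.08), and among 9 redox enzymes Gsr rose (0.28 ± 0.05) and Nnt fell (-0.58 ± 0.13). Of 12 heme and iron-sulphur genes, the users of mitoferrin iron, 1 fell, Hscb (-0.61 ± 0.15). Of 5 outer membrane relatives and channels 1 fell, Mtch1 (-0.16 ± 0.05), and of 16 inner membrane import genes 0 were called by edgeR (1 at an unadjusted p under 0.05, 0 by DESeq2). The calls on Atf5, Aldh1l2 and Ppargc1b were lost in at least 1 other setting or without 1 library. Without IL-22 replicate 3 there were 2 higher and 2 lower redox enzymes. The fall of Idh2 rested on unstimulated replicates 1 and 2 and IL-22 replicates 1 and 3 (adjusted p up to 0.0761 without them in turn), and that of Hscb on unstimulated replicate 2 and IL-22 replicate 2, while 2 heme and iron-sulphur genes fell without IL-22 replicate 3. That of Mtch1 rested on unstimulated replicates 2 and 3, all 3 IL-22 replicates, IL-1b replicates 2 and 3, and IL-1b+IL-22 replicates 1 and 3, and it was missed with DESeq2, no filter and only the libraries compared (adjusted p up to 0.17). Its list gave 0 higher and 2 lower without unstimulated replicate 1, and 1 higher and 0 lower without IL-22 replicate 3. With the level trend removed that list gave 0 higher and 3 lower. With total counts, 5 carnitine, 3 redox and 2 heme and iron-sulphur genes were lower.

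With both cytokines the same lists gave, as higher and lower, 2 and 4 for other inner membrane carriers, 1 and 3 for the carnitine shuttle, 1 and 3 for biogenesis regulators, 2 and 2 for arginine and ornithine, 3 and 1 for one-carbon, 4 and 0 for stress response, 1 and 1 for shuttles, 2 and 2 for citrate use, 2 and 1 for redox, 0 and 1 for heme and iron-sulphur, 0 and 0 for outer membrane and 1 and 0 for import. Of all genes 13.7% were higher and 13.3% lower, so counts of 1 or 2 in these short lists are near the background. Genes called with both included Sfxn3 (-1.38 ± 0.10), Sfxn5 (-1.19 ± 0.18), Otc (-1.51 ± 0.23), Ppara (-1.57 ± 0.25), Ppargc1a (-1.22 ± 0.14), Nnt (-0.74 ± 0.13), Gpd1 (0.74 ± 0.10), Me1 (0.66 ± 0.11) and Chac1 (1.03 ± 0.10). With the level trend removed the carnitine list gave 1 and 8, the other inner membrane carriers 0 and 3 and the outer membrane list 0 and 2. Over the processing alternatives, 2 to 4 genes were lower in the arginine and ornithine list and in the citrate list. In the stress response list 3 to 6 were higher. Without IL-1b+IL-22 replicate 3 the other inner membrane carriers gave 0 and 3, the carnitine list 1 and 1, the one-carbon list 1 and 0 and the redox list 1 and 1. The other inner membrane carriers also gave 0 and 4 without unstimulated replicate 2, 1 and 3 without unstimulated replicate 3, and 1 and 4 without IL-1b replicate 1 or IL-1b+IL-22 replicate 2. The arginine and ornithine list had 1 higher in place of 2 without any single library other than unstimulated replicate 2 and the IL-22 replicates, since the call on Asl (0.19 ± 0.06) did not hold. The shuttle list gave 2 and 1 without unstimulated replicate 1 or IL-1b+IL-22 replicate 1, and the redox list 2 and 2 without IL-1b replicate 2. The carnitine list also gave 1 and 1 without unstimulated replicate 2 or 3, and the one-carbon list 1 and 0 or 1 and 1 without unstimulated replicate 2 or 3 or IL-1b+IL-22 replicate 1, and 3 and 0 without IL-1b+IL-22 replicate 2. The import list gave 4 and 0 without IL-1b+IL-22 replicate 2, and 0 and 0 without unstimulated replicate 1 or IL-1b+IL-22 replicate 1 or 3. The heme and iron-sulphur list gave 0 and 0 without unstimulated replicate 1 or 2 or IL-1b+IL-22 replicate 2 or 3, and 0 and 2 without any of the IL-22 replicates or IL-1b+IL-22 replicate 1. The outer membrane list (1 gene at an unadjusted p under 0.05, 0 by DESeq2) gave 1 and 0 without IL-22 replicate 2. With IL-1b alone, edgeR called 0 of the 122 genes of these mitochondrial lists, 10 were at an unadjusted p under 0.05, and DESeq2 called 0. In at least 1 other processing alternative, 1 gene of the arginine and ornithine list was called lower with IL-1b.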

How the data were processed

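Polyadenylated RNA was sequenced with a stranded kit, per the labels' protocols. The authors deposited whole-number read counts per gene symbol, unnormalized, and the submitters' processing notes name build mm10. No aligner, counter, counting strand or annotation is given in the sources used here. All 12 libraries were grouped by their labels.

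The members and gene lists were chosen with earlier results of these data known. The filterByExpr step of edgeR 4.0.16 (R 4.3.3) kept 13987 symbols and dropped 21882. TMM factors were 0.957 to 1.04. A quasi-likelihood model in edgeR with a mean for each group took in all libraries (residual degrees of freedom: 8), with two-sided tests. A gene counted as called where its Benjamini-Hochberg adjusted p, taken over all 13987, was under 0.05. The standard error is the log2 fold change over the root of F. The fit was tested on simulated counts.

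Every carrier called in any of the 6 comparisons is named with values, as is each tested carrier of a role class with up to 4 of them, and up to 4 called genes per pathway list; 1 carrier and 1 marker gene are not reported singly here or drawn. Positions and lengths are from GENCODE M21 on GRCm38 (26762 symbols matched directly, 519 by synonym, 8588 not), with the longest principal transcript as the length. Of the 50 carriers 15 share exon bases with another gene model, and their counts are uncertain to that extent.

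Alternatives were DESeq2 1.42.0 (size factors and Wald test), total counts, no filter, 1 CPM in 6 libraries, only the libraries compared, a replicate block, the level trend removed (lowess of base R, span 0.3) and leaving out each library.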

Additional observations from a re-analysis of the deposited data

How the results depend on the processing

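No carrier changed direction with a call in any alternative. Leaving out each library in turn gave 4 to 12 carriers called with IL-22, 9 to 14 with both cytokines, 10 to 15 for both against IL-1b, and 0 in the other 3 comparisons. Without unstimulated replicate 2 there were 4 with IL-22 and 9 with both, and without IL-1b+IL-22 replicate 3 there were 9 with both. With total counts in place of TMM, IL-22 gave 2 higher and 10 lower, both cytokines 3 higher and 10 lower (5 and 9 with TMM), and both against IL-1b 6 higher and 9 lower. Same-numbered libraries did not deviate together (r -0.188 to 0.179, and 2 of 12 libraries correlated best with their own number), so the numbers were not taken as pairs. With the replicate number as a block, 8 carriers were called with IL-22, 13 with both and 13 for both against IL-1b. The calls missed under it were those on Slc25a4 with IL-22 (adjusted p = 0.0777), Slc25a48 with both (0.0682) and Slc25a28 for both against IL-1b (0.0687). Removing the level trend gave 8, 16 and 14. The DESeq2 Wald test gave 8, 12 and 11. Of single-carrier values, 944 stayed on their side of the threshold, 32 passed it and 83 no longer did; the cause was not tested.

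The library totals limit most the carriers with few counts, such as Slc25a31 (1 to 26 a library).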

Other observations

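Slc25a27 and Slc25a53 were at the edge of detection. Slc25a27, a brain relative of the uncoupling proteins and too low to be tested, had 0.604, 1.56 and 1.28 CPM with both cytokines, 1.03, 0.442 and 0.376 CPM with IL-22, 2.2, 1.5 and 2.65 CPM with IL-1b, and 1.60, 1.45 and 1.70 CPM unstimulated. Slc25a53 had 0.403, 0.978 and 1.5 CPM with both, 1.65, 0.884 and 0.941 CPM with IL-22, 2.57, 2.06 and 1.33 CPM with IL-1b, and 1.60, 1.27 and 1.89 CPM unstimulated (-0.72 ± 0.46 with both, adjusted p = 0.263). Several of these values are at or near 3 counts.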
